A study of Drosophila melanogaster with 8 samples.

Results

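The Cpr genes encode the largest group of structural cuticle proteins of Drosophila melanogaster, and 70 of the 13922 protein-coding genes on the 6 arms (X, 4 and both arms of chromosomes 2 and 3) carry such a name. Members were taken from the RefSeq gene table of the Release 6 assembly as every protein-coding gene on these arms whose symbol starts with Cpr followed by a digit. The rule uses names alone, but the family was taken up with earlier results of these data known. A gene was counted as hit in a library when at least 1 peak of its list overlapped the gene's span or the 2 kb on either side. By that definition 16 members were hit in at least 1 of the 8 lists (22.9%, against 49.9% of all protein-coding genes). Of these, 2 were hit in 2 lists (2.86% of members, against 29.3% of all genes in 2 or more) and none in 3 or more (0%, against 15.5%).

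Cuticle is secreted by epidermal cells, including those of the wing imaginal disc, the larval epithelium that becomes the adult wing. Proteins of this family carry the Rebers and Riddiford (R&R) consensus, a stretch that binds chitin, and different members are used in different body regions and moulting stages under the control of ecdysone pulses. Many of the genes stand in tandem arrays. Zelda is a zinc-finger transcription factor known as a pioneer of zygotic genome activation in the embryo.

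Chromatin was profiled by CUT&RUN, in which an antibody guides a nuclease that releases the DNA it is bound to. The 4 groups were wing discs with GFP on the endogenous Zelda 2 days after damage, untagged w1118 (labelled wild type) discs 2 days after damage, undamaged Zelda-GFP discs and undamaged w1118 discs. All 8 libraries, 2 per group, used the same rabbit anti-GFP antibody, so the untagged lists show what that antibody gives without its target. The labels state neither how damage was caused, nor larval age, nor how many discs were pooled, and do not say whether replicates came from separate cultures, so their spread may be technical. Peak lists hold no expression values, and the disc label was not checked against marker genes.

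On the arms the Zelda-GFP damaged lists held 3624 and 3908 peaks, the wild-type damaged lists 2282 and 3706, the Zelda-GFP undamaged lists 2908 and 1698 and the wild-type undamaged lists 1744 and 3355. Read totals are unknown. Background coverage was recovered from the authors' fold and p-value columns, as the lowest expected coverage over the peaks solved in a list. It lay between 32.6 and 52.3 fragments per base. As a stand-in for depth it depends on whether a control entered the peak calls, which is not given. Lists of the same group thus differed in length, most of all in undamaged wild-type discs. Wild-type damaged replicate 2 stood apart from its replicate, with peaks near far more genes.

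Peaks near Cpr genes were few in all 8 lists. Zelda-GFP damaged discs had peaks at 2 and 1 of the 70 members (2.86% and 1.43%), where 20.9% and 23.3% of all protein-coding genes were hit. In wild-type damaged discs 3 and 4 members were hit (4.29% and 5.71%), against 7.18% and 30.5% of all genes. The member share was thus below the share of all genes in each of these 4 lists, tagged and untagged alike. Zelda-GFP undamaged discs had 3 and 0 members hit (4.29% and 0%), against 11.1% and 3.89% of all genes, and wild-type undamaged discs had 0 and 5 (0% and 7.14%), against 3.96% and 14.5%. The highest member share of any list was in an untagged, undamaged library. In damaged discs both Zelda-GFP lists had fewer hit members than either wild-type list, by 1 to 3 genes. In undamaged discs the counts of the 2 genotypes overlapped. That order did not hold with folds of at least 2. This cutoff left 1 and 1 members in Zelda-GFP damaged discs, against 14.0% and 15.6% of all genes. It left 0 and 0 in wild-type damaged discs, against 2.00% and 8.93% of all genes. Nor did the order hold with lists of equal length, where all 4 counts were 0, against 4.71% to 13.9% of all genes. With the gene span alone, a flank of 1 kb or a flank of 5 kb, a Zelda-GFP list tied with a wild-type one. Because of how the family was chosen, no p-value is given for a count over it.

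**Figure D1:**
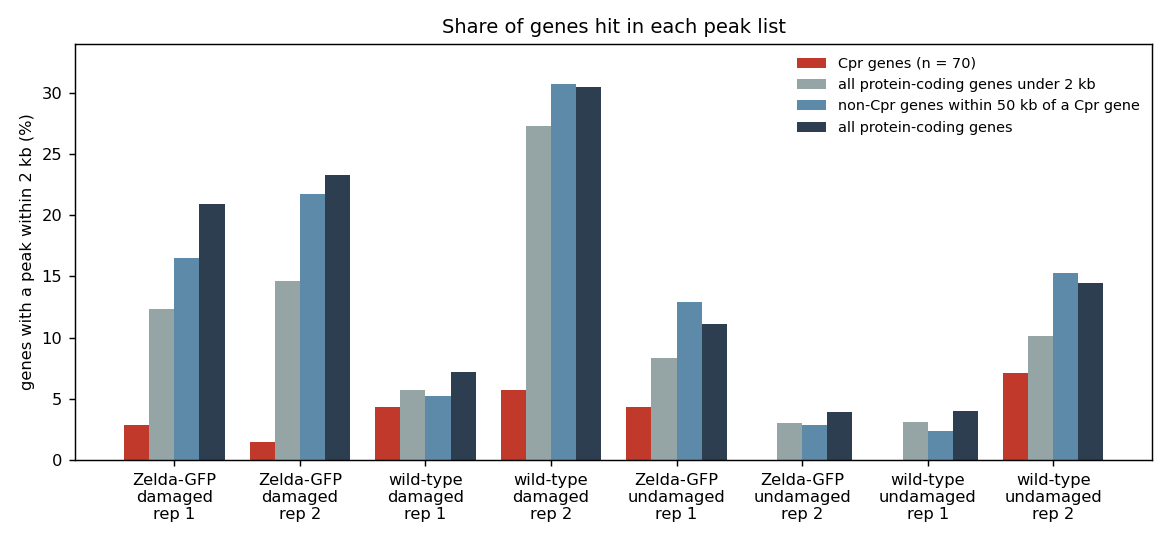
Bars give the percentage of genes with a peak within 2 kb in each of the 8 peak lists, for the 70 Cpr genes, for all protein-coding genes under 2 kb, for non-Cpr genes within 50 kb of a Cpr gene, and for all 13922 protein-coding genes. The Cpr bar is the lowest of the 4 in every list, between 0% and 7.14%.

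Cpr genes are short, with a median span of 1094 bp against 2163 bp for all protein-coding genes, and a short gene offers a smaller window to a peak. The comparison was therefore repeated with genes under 2 kb, 53 members against 6516 genes of that size in all. In Zelda-GFP damaged discs 1.89% of the short members were hit in both lists, against 12.3% and 14.6% of all short genes. Wild-type damaged discs gave 3.77% of short members in both lists, against 5.69% and 27.3%. In undamaged discs the short members had 5.66% and 0% in Zelda-GFP, against 8.32% and 2.99%, and 0% and 7.55% in wild type, against 3.10% and 10.1%. The member share stayed below that of genes of like size in all 8 lists.

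Counting peaks per length of window gave the same order. The 70 windows of span plus 2 kb merged into 44 intervals of 370 kb in total. Zelda-GFP damaged discs had 5.4 and 2.7 peaks per Mb of these intervals, against 23.9 and 26.8 per Mb of the windows of all protein-coding genes. In wild-type damaged discs the values were 5.4 and 16.2 peaks per Mb, against 10.8 and 25.8. Zelda-GFP undamaged discs had 5.4 and 0 per Mb, against 15.4 and 7.58, and wild-type undamaged discs 0 and 8.1, against 7.59 and 19.0.

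The genes around the members were hit more often than the members in all 8 lists. Within 50 kb of a Cpr gene lie 589 other protein-coding genes, with a median span of 2212 bp. In Zelda-GFP damaged discs 16.5% and 21.7% of these neighbours were hit, in wild-type damaged discs 5.26% and 30.7%, in Zelda-GFP undamaged discs 12.9% and 2.89%, and in wild-type undamaged discs 2.38% and 15.3%. In percentage points the gap was widest in wild-type damaged replicate 2, with 5.71% of members but 30.7% of their neighbours hit.

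Cpr35B, on 2L from 14424315 to 14425189 (CG3474), was the only member hit in both Zelda-GFP damaged lists and in neither wild-type damaged list. That class held 1 of 70 members (1.43%), against 6.65% of all protein-coding genes and 3.07% of those under 2 kb. The region ran from 14425637 to 14426716, began 448 bp beyond the end of the gene with the higher coordinate and overlapped no annotated gene. Its fold enrichment by the authors' caller was 2.08 and 2.23 in the 2 Zelda-GFP damaged lists, at the 48.7th and 58.3rd percentile of the peaks of each list. It was a middling peak in both. In the wild-type damaged lists the nearest peak lay 41.0 kb from the gene in both, and in the undamaged lists between 31.5 and 220 kb away. Cpr35B was also the only member hit in both Zelda-GFP damaged and neither Zelda-GFP undamaged list, a class that held 10.3% of all genes.

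Cpr73D, on 3L from 16939100 to 16957689 and with 18590 bp the longest member, was the other gene with hits in 2 lists. Zelda-GFP damaged replicate 1 had a peak at 16955610 to 16956181, with a fold of 1.95, in a stretch that Ogdh also covers. Zelda-GFP damaged replicate 2 had no peak closer than 52.7 kb. Wild-type damaged replicate 2 had a peak at 16950075 to 16950692, with a fold of 1.72, where Obp73a overlaps. The 2 peaks are different regions, so no position in Cpr73D was called in more than 1 library. Cpr73D was named, like the genes in the following paragraphs, after its values were seen.

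Just outside the 2 kb limit stood Cpr67B, whose nearest peaks lay 2.37 and 2.35 kb away in Zelda-GFP damaged discs, against 49.6 and 4.10 kb in wild-type damaged discs and 3.53 kb in wild-type undamaged replicate 2. Cpr67Fb followed at 3.46 kb in both Zelda-GFP damaged lists, against 131 and 15.3 kb in the wild-type damaged ones and 3.70 kb in wild-type undamaged replicate 2. An untagged library thus had a peak nearly as close to both genes. With a flank of 5 kb, 4 and 3 members were hit in Zelda-GFP damaged discs (5.71% and 4.29%), against 29.8% and 33.2% of all genes.

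Of the other 14 hit members, 11 were hit in wild-type lists only, 15.7% of the family where 17.6% of all genes were. Hits confined to Zelda-GFP lists were found at 4 members (5.71%, against 12.1% of all genes), namely Cpr35B, Cpr31A, Cpr65Ax1 and Cpr65Ax2. Hits in lists of both genotypes occurred at 1 member, Cpr73D (1.43%, against 20.2%). By condition, 8 members were hit in damaged lists only (11.4%, against 28.5% of all genes), 8 in undamaged lists only (11.4%, against 5.19%) and none in lists of both conditions (16.2% of all genes). The 8 in undamaged lists rest on 5 regions, because neighbours share peaks.

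In wild-type damaged discs, replicate 2 held 6 of the calls in Cpr windows. Near Cpr47Eg on 2R it called regions at 11279120 to 11279392 in CG9067 and at 11279877 to 11280271 in Vhl, with folds of 1.76 and 1.77. At Cpr56F the region at 2R 20286594 to 20287008 lay in CG16868 (fold 1.78), and at Cpr60D the regions at 2R 24661594 to 24661920 and 24663841 to 24664113 lay in CG3663 (1.89) and CG30161 (1.72). These 5 peaks fell in a neighbouring gene rather than in the Cpr gene, while the sixth was the call inside Cpr73D given above. Wild-type damaged replicate 1 called 2 regions, one at 2L 9544160 to 9544478 in CG13113 next to Cpr30B (1.56) and one at 2R 12389498 to 12389781 inside Cpr49Ac and 1115 bp from Cpr49Ad (1.60).

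Among undamaged lists, Zelda-GFP replicate 1 called a region at 2L 10057041 to 10057489 in Pen, 1106 bp from Cpr31A (fold 1.61), and one at 3L 6149279 to 6149865. The second overlapped the larval cuticle gene Lcp65Ab1 and lay within 2 kb of both Cpr65Ax1 and Cpr65Ax2, with a fold of 1.80. These are duplicated genes, and how reads that match several copies were placed is not given in the sources used here. Wild-type undamaged replicate 2 called a region at 2R 11266367 to 11266626 inside Cpr47Ee and 289 bp from Cpr47Ef (1.62), one at 12378645 to 12378850 inside Cpr49Ab and 1267 bp from Cpr49Aa (1.69), and one at 3L 8340007 to 8340211 in Pex2 near Cpr66Cb (1.55). Zelda-GFP undamaged replicate 2 and wild-type undamaged replicate 1 called none.

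**Figure D2:**
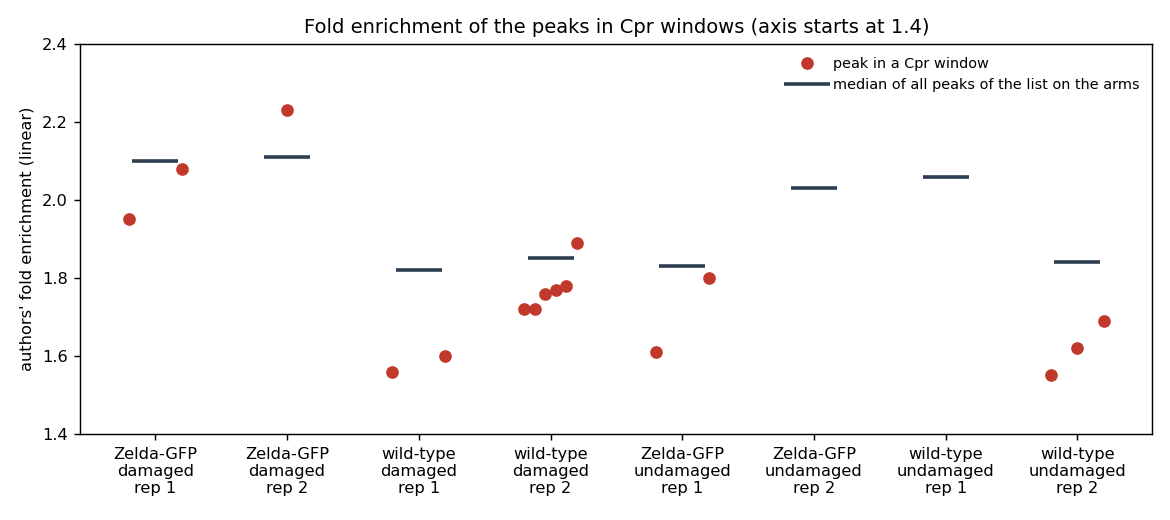
Points give the authors' fold enrichment of each of the 16 peak calls in Cpr windows by list, and bars the median fold of all peaks of that list on the arms. All but 2 points lie under their list's median, the exceptions being Cpr35B at 2.23 in Zelda-GFP damaged replicate 2 and the 1.89 near Cpr60D in wild-type damaged replicate 2.

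In all, 15 regions accounted for the 16 hit members, and the Cpr35B region was the only one called in 2 lists. The other 14 regions were called in 1 list each (53.1% of all 9086 regions on the arms were), and 9 of the 15 overlapped another protein-coding gene and no member. A Cpr span itself was overlapped by 5 regions, in Cpr47Ee, Cpr49Ab, Cpr49Ac and, with 2, Cpr73D. Folds of the 16 calls ran from 1.55 to 2.23, with a median of 1.74, and 14 of the 16 stood below the 50th percentile of their own list. Most peaks near Cpr genes thus had folds below the middle of all peaks of their lists on the arms. Peaks near other genes, or in regions called in 1 list, were not ranked separately.

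The remaining call classes held no member. Neither wild-type damaged discs alone (both wild-type lists and neither Zelda-GFP list, 1.21% of all genes), nor Zelda-GFP undamaged discs alone (0.589%), nor wild-type undamaged discs alone (0.302%) had a Cpr gene. No member was hit in both wild-type damaged lists and neither wild-type undamaged list (1.99%), and none in all 8 lists (2.22%). These classes were small over the whole genome, so few members or none would fall in them at the share of all genes.

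A test of single genes asked whether hit status followed the tag or damage. It was an exact two-sided permutation test over the 8 lists, with 70 labelings and a smallest p of 0.0286, adjusted by the Benjamini-Hochberg method over the 6947 genes hit in at least 1 list. No gene passed an adjusted p of 0.05 for the tag or for damage (0% of genes called in each), and 41 and 62 genes had an unadjusted p below 0.05. The outcome was set by the design: at least 3970 genes would have had to reach the smallest p for any to pass the adjustment, and a gene hit in at most 2 lists, as every member was, cannot have a p below 0.429. Cpr35B had hits in 2 of 4 Zelda-GFP lists and 0 of 4 wild-type lists (exact permutation p = 0.429, adjusted p = 1), and the same counts for 4 damaged and 4 undamaged lists gave the same p. Cpr73D likewise had 2 of 4 damaged lists and 0 of 4 undamaged ones. The smallest adjusted p of any gene was 1 in both comparisons.

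Most Cpr genes stand in arrays, and most of these arrays had no peak in any list. Chaining members with gaps of at most 10 kb gave 13 clusters holding 49 members, besides 21 single genes. Peaks hit members of 3 clusters in any list, and no cluster in either Zelda-GFP damaged list. Of the 49 clustered members 9 were hit in any list, and of the 21 single genes 7, where 49.9% of all genes were. Arrays of other genes were not counted, so no like share stands beside the 3 clusters. The 2 clusters of 5 or more members were Cpr47Ea to Cpr47Eg, with 7 genes over 26.7 kb of 2R (11251751 to 11278445), and Cpr65Au to Cpr65Az, with 7 genes over 30.3 kb of 3L (6131242 to 6161589). Within its bounds and 2 kb on either side the first had 2 peaks in wild-type damaged replicate 2 and 1 in wild-type undamaged replicate 2, the second 1 in Zelda-GFP undamaged replicate 1. Among the 11 other protein-coding genes inside the 65A cluster, 10 are other cuticle genes with R&R-type names, such as Lcp65Ab1. The third cluster with hits, Cpr49Aa to Cpr49Ad on 2R, had all 4 of its genes hit by 2 regions, both in wild-type lists.

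The other 10 clusters had no peak inside their bounds or within 2 kb in any of the 8 lists. They include Cpr64Aa to Cpr64Ad and Cpr76Ba to Cpr76Bd with 4 genes each, and Cpr72Ea to Cpr72Ec, whose last member encodes a protein of the corneal lens. Their surroundings were not empty. In Zelda-GFP damaged discs a peak stood 3.46 kb beyond the Cpr67Fa1 to Cpr67Fb cluster in both lists, and 11.1 and 11.8 kb beyond the Cpr64A cluster. Untagged wild-type undamaged replicate 2 had peaks 3.70 and 10.4 kb beyond the same clusters. At the 65A cluster the nearest peaks of the Zelda-GFP damaged lists lay 89.7 kb from one side in both lists, and 56.6 and 23.0 kb from the other. By arm, 3 of 5 members on 2L were hit in any list (52.0% of all genes on that arm were), 9 of 21 on 2R (52.8%), 4 of 35 on 3L (51.8%), 0 of 5 on 3R (54.5%) and 0 of 4 on X (33.3%).

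**Figure D3:**
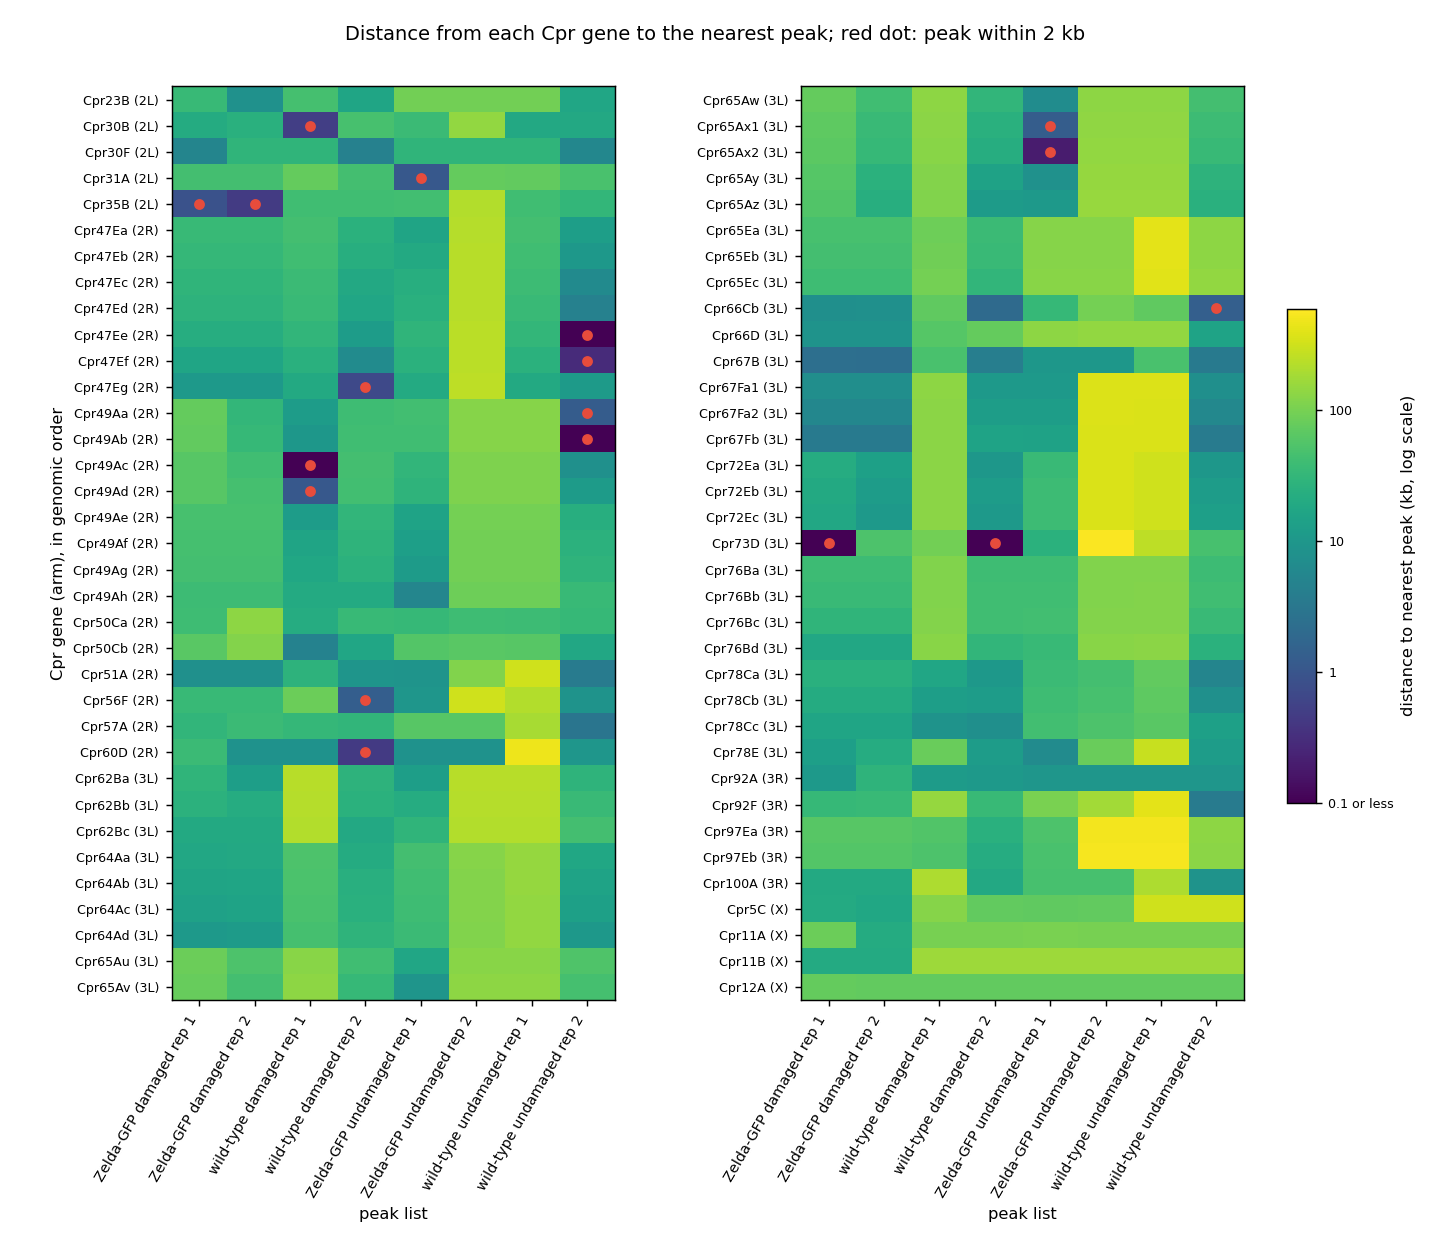
Each row is 1 of the 70 Cpr genes in genomic order with its arm in brackets, each column 1 peak list, and colour gives the distance from the gene to the nearest peak in kb on a log scale (0 kb shown as 0.1). Red dots mark the 18 gene and list pairs with a peak within 2 kb, with 2 dots in the rows of Cpr35B and Cpr73D and 1 in each of 14 other rows.

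Distance to the nearest peak does not depend on the 2 kb limit. In Zelda-GFP damaged discs the median distance over the 70 members was 29.7 and 26.7 kb, against 14.0 and 11.7 kb over all protein-coding genes and 17.5 and 15.2 kb over genes under 2 kb. Wild-type damaged discs had 58.4 and 24.5 kb for members, against 52.5 and 8.89 kb for all genes. Members were thus farther from peaks than genes at large in all 4 damaged lists. Zelda-GFP undamaged discs had medians of 32.2 and 125 kb for members, against 31.4 and 100 kb for all genes. In wild-type undamaged discs the medians were 134 and 16.2 kb for members, against 102 and 23.4 kb. Wild-type undamaged replicate 2 was the exception of the 8 lists, with members closer to peaks than genes at large.

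Within 10 kb, 10 members were reached in each Zelda-GFP damaged list (14.3%, against 42.1% and 46.3% of all genes), and 6 and 10 in wild-type damaged discs (8.57% and 14.3%, against 15.7% and 52.1%). In wild-type undamaged replicate 2 it was 22 members (31.4%, against 31.1%), and within 20 kb 39 (55.7%, against 46.1%). In that library the low share thus held close to the genes and not in the wider surroundings. Of the 70 members, 58 had no peak within 10 kb in either Zelda-GFP damaged list (82.9%, against 46.7% of all genes). Among the farthest in those 2 lists was Cpr12A on X, for which every list had its nearest peak between 74.6 and 75.6 kb away. That was nearer than the member median in Zelda-GFP undamaged replicate 2 (125 kb) and wild-type undamaged replicate 1 (134 kb). Cpr66D, which encodes another corneal lens protein, had a peak 8.72 and 8.81 kb away in Zelda-GFP damaged discs. It had none within 20 kb in wild-type damaged discs and one 15.5 kb away in wild-type undamaged replicate 2.

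**Figure D4:**
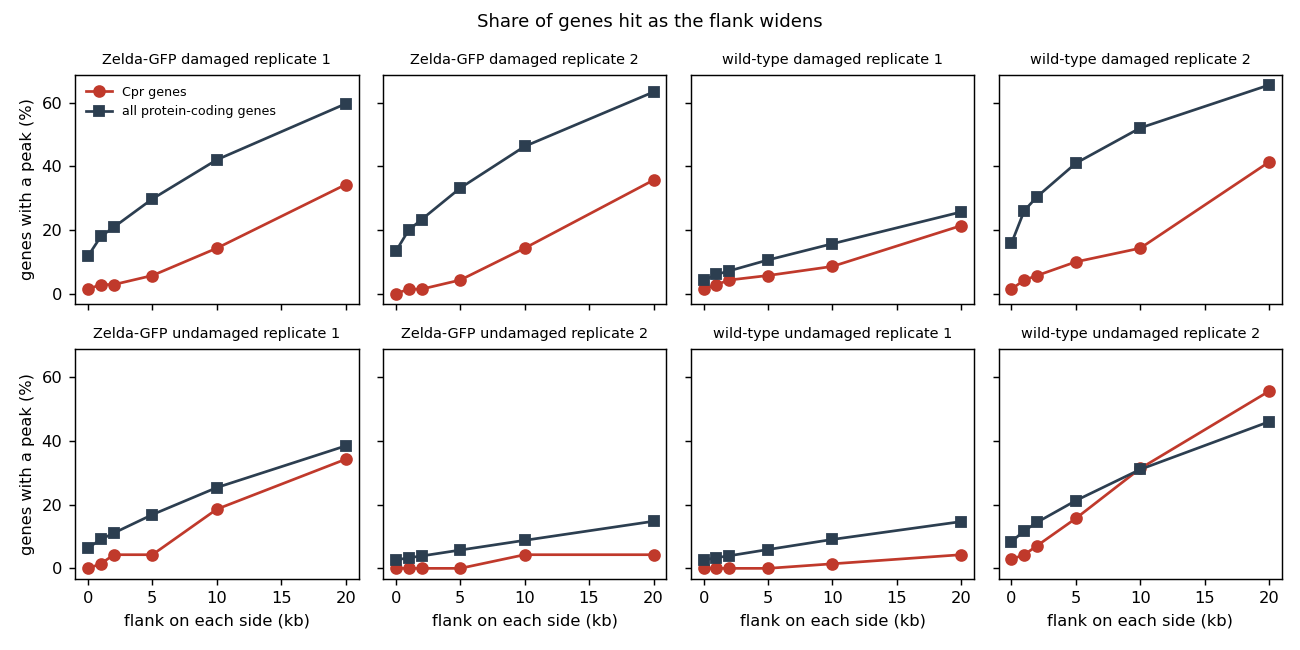
Each panel is 1 peak list, with the flank added on each side of a gene (0 to 20 kb) on the x axis and the percentage of genes with a peak on the y axis, for the 70 Cpr genes (circles) and all protein-coding genes (squares). The Cpr line runs below the line of all genes in every panel but that of wild-type undamaged replicate 2, where it crosses at 10 kb (31.4% against 31.1%).

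Cuticle genes outside the Cpr names were counted in the same way. Among 28 other genes with R&R-type names (Lcp, Acp65A, Ccp84A, Edg78E, Edg84A, Pcp, Crys and resilin, median span 750 bp), 3 and 1 were hit in Zelda-GFP damaged discs (10.7% and 3.57%, against 20.9% and 23.3% of all genes) and 0 and 4 in wild-type damaged discs (0% and 14.3%, against 7.18% and 30.5%). In undamaged discs 3 and 0 were hit in Zelda-GFP (10.7% and 0%, against 11.1% and 3.89%) and 0 and 3 in wild type (0% and 10.7%, against 3.96% and 14.5%). The 3 genes in Zelda-GFP damaged replicate 1 were Ccp84Ae, Ccp84Af and Ccp84Ag, neighbours in the 84A array. Their nearest peaks lay 1.92, 0.636 and 0.629 kb away. The 3 in Zelda-GFP undamaged replicate 1 included Lcp65Ab1 and Lcp65Aa, both within 2 kb of the region near Cpr65Ax1 and Cpr65Ax2. Neighbours can thus share a peak, and regions were not counted for the 28 genes. The 1 in Zelda-GFP damaged replicate 2 was Pcp, a pupal cuticle gene nested in an intron of another gene. Pcp was also hit in wild-type damaged replicate 2. None of the 28 was hit in both Zelda-GFP damaged lists. Of 25 Tweedle genes, a separate family of cuticle proteins, TwdlW was hit in Zelda-GFP undamaged replicate 1 (1 of 25, against 11.1% of all genes) and no other gene in any list.

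Genes that make and organise chitin were counted next. Of 17 such genes, 8 and 5 were hit in Zelda-GFP damaged discs (47.1% and 29.4%, against 20.9% and 23.3% of all genes) and 1 in each list of wild-type damaged discs (5.88% in both, against 7.18% and 30.5%). In undamaged discs 2 and 0 were hit in Zelda-GFP (11.8% and 0%, against 11.1% and 3.89%) and 0 and 3 in wild type (0% and 17.6%, against 3.96% and 14.5%). Both Zelda-GFP damaged lists and neither wild-type damaged list hit 5 of the 17, where 6.65% of all genes fell in that class. These were mmy, which makes the activated sugar for chitin, verm, a chitin deacetylase, Cht2, a chitinase, obst-A, a chitin-binding matrix protein, and rtv, needed for chitin fibre organisation. Of these 5, Cht2 was also hit in Zelda-GFP undamaged replicate 1. The median span of the 17 genes, 7039 bp, exceeds that of the Cpr genes and that of all protein-coding genes (2163 bp). Only rtv (1507 bp) is under 2 kb. The part of length in the shares of the chitin genes was not tested.

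The regulators of cuticle genes were 11 genes with a median span of 50703 bp, for nuclear receptors, other ecdysone-linked factors and grh. Zelda-GFP damaged discs had hits at 6 and 9 of them (54.5% and 81.8%, against 20.9% and 23.3% of all genes). In wild-type damaged discs 0 and 2 were hit (0% and 18.2%, against 7.18% and 30.5%). In undamaged discs 1 and 0 were hit in Zelda-GFP (9.09% and 0%, against 11.1% and 3.89%) and 0 and 5 in wild type (0% and 45.5%, against 3.96% and 14.5%). The class of both Zelda-GFP damaged lists and neither wild-type damaged list held 5 of the 11, against 6.65% of all genes. They were br, an early ecdysone response gene, ftz-f1 and Hr39, nuclear receptors, Eip74EF, an ecdysone-induced ETS factor, and grh, a factor of the epidermal barrier. Of these 5, Eip74EF and grh were also hit in untagged wild-type undamaged replicate 2, and Hr39 in Zelda-GFP undamaged replicate 1. The windows of these genes are far longer than those of the Cpr genes, and the part of length in these shares was not tested.

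**Figure D5:**
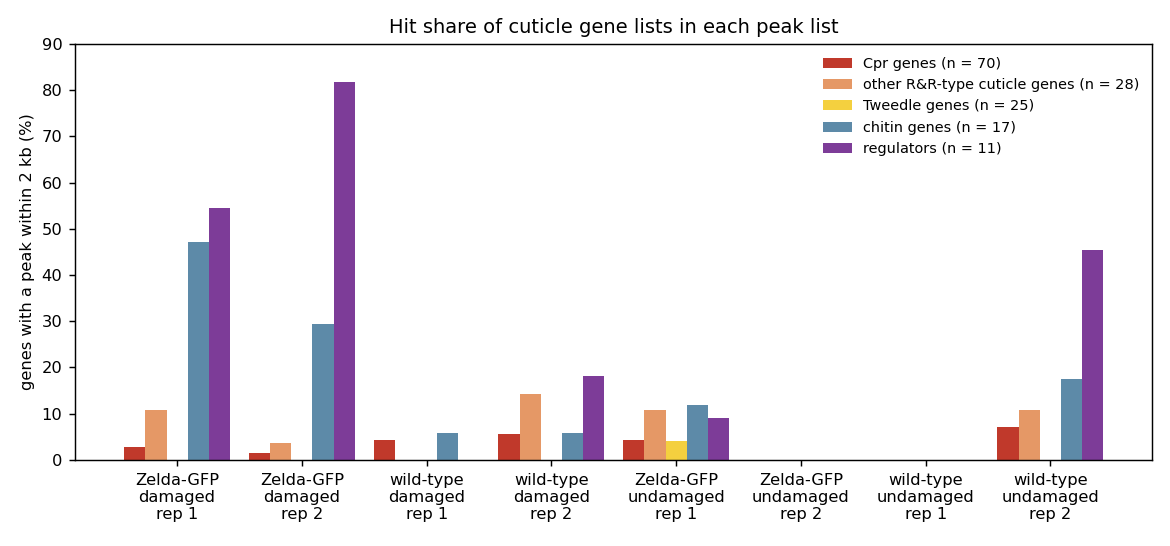
Bars give the percentage of genes with a peak within 2 kb in each peak list for the Cpr genes and 4 other cuticle lists. The chitin and regulator bars of the Zelda-GFP damaged lists reach 29.4% to 81.8%, while the Cpr, R&R-type and Tweedle bars stay at or below 14.3% in every list.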

How the data were processed

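The 8 wing disc libraries were made by anti-GFP CUT&RUN. Per the submitters' processing notes, bcl2fastq 2.20, Bowtie2, SAMtools, Picard, deepTools, MACS2 and the build dm6 were used, with roles not given. The authors deposited 1 peak list per library, and peak names record that duplicates were marked. By the layout of the deposited lists, the authors' fold is a linear ratio of pileup to local expected coverage, and the authors' other columns hold the −log10 p-value, the −log10 q-value and a score of 10 times the −log10 q-value without decimals. The control, threshold and settings of the peak calls are not given in the sources used here. Folds were ranked within a list; the range of folds over lists and the minimum fold of 2 set lists side by side that differ in coverage.

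Genes came from the RefSeq table of Release 6, the assembly that dm6 names. Hits, distances, merged regions (at least 1 bp shared) and permutation tests were computed with Python 3.11.15, numpy 2.4.6 and pandas 2.3.3. The code for hits and distances was tested on shifted peaks of these data, and that for the permutation tests on simulated hits. The merging of regions was not tested in this way. Background coverage was solved from fold and p-value, with whole pileups (within 0.05) for 99.9% to 100% of the peaks solved. Peaks with the smallest p-values were left out, so that 2406 of 2707 peaks were solved in wild-type undamaged replicate 1. The members and lists were chosen with earlier results of these data known. Named were members hit in both lists of 1 genotype and neither of the other in a condition, members hit in 6 or more lists, and clusters of 5 or more members. Other names were chosen after their values were seen. The size class, the neighbours, the distances and the flanks of 10 and 20 kb were added after seeing the data. Promoter and protein sequences were not analysed here.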

Additional observations from a re-analysis of the deposited data

How the results depend on the processing

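Read depth is unknown and the lists differ in length, and hit counts moved with list length, flank and fold; the cause was not tested. With lists of equal length (the 1698 peaks with the smallest q-values in each), no Cpr gene was hit in any list (0), while 3.89% to 13.9% of all genes were. With folds of at least 2, 1 member (Cpr35B) remained in each Zelda-GFP damaged list, against 14.0% and 15.6% of all genes. The others had 0 members, against 2.00% to 8.93% of all genes. With the gene span alone the counts were 1 and 0 in Zelda-GFP damaged discs, against 11.8% and 13.3% of all genes. Wild-type damaged discs had 1 and 1, against 4.23% and 15.8%. Zelda-GFP undamaged discs had 0 and 0, against 6.44% and 2.63%, and wild-type undamaged discs 0 and 2, against 2.61% and 8.38%. A flank of 1 kb gave 1 in Zelda-GFP undamaged replicate 1, against 9.09% of all genes. In wild-type undamaged replicate 2 it gave 3, against 11.8%. A flank of 5 kb gave 4 and 3 in Zelda-GFP damaged discs, against 29.8% and 33.2% of all genes. It gave 7 in wild-type damaged replicate 2, against 41.0%, and 11 in wild-type undamaged replicate 2, against 21.3%. The members hit in any list numbered 4 with the span alone, 10 with 1 kb and 24 with 5 kb. They numbered 1 with folds of at least 2, 0 with equal lengths and between 11 and 16 without any 1 library. This result and its alternatives were chosen after seeing the data. The share of all genes hit in any list, or called in a class below, was not counted for the alternatives. The Zelda-GFP damaged class held 0 members with the span alone or equal lengths and 2 with 5 kb, and 1 without any 1 replicate. The Zelda-GFP damaged class against undamaged held 0, 0 and 3, and 1 to 2. Without 1 replicate, which loosens a class, the wild-type damaged class held 0 to 3 members, the Zelda-GFP undamaged class 0 to 3, the wild-type undamaged class 0 to 5 and the wild-type damaged class against undamaged 0 to 4. Limiting the background to genes no longer than the longest member lowered it to 18.4% and 20.9% in Zelda-GFP damaged discs. Clusters numbered 15 with gaps of 5 kb and 12 with 20 kb.

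The labels give same-numbered libraries only a number in common, and correlations of their deviations lay between -0.1 and 0.15. Whether they shared a batch is not stated. With a replicate block the number of genes past an adjusted p of 0.05 stayed 0 for the tag and for damage, and 0 had an unadjusted exact permutation p below 0.05, since 16 labelings cannot go under 0.125. Lists of equal length and the tests without 1 library also called 0 genes, which says nothing about stability, since no adjusted p could pass with so few genes at a low p. The genes with an unadjusted p below 0.05, 41 for the tag and 62 for damage, numbered 33 and 37 with equal lengths, and 44 to 128 and 66 to 478 without 1 library, with 128 without Zelda-GFP undamaged replicate 2 and 478 without wild-type damaged replicate 1.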
